A study of Mus musculus with 96 samples.

Results

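Lyz1 and Lyz2 are the pair of neighbouring lysozyme genes on mouse chromosome 10, and their transcript levels were followed in cultured osteoblasts of 42 mouse strains. Both genes were chosen by name, as the 2 lysozyme genes of interest among the 37945 genes of the deposited table, with 1 transcript each among 94545 transcripts. They were picked with earlier results of these data in view, so their levels by strain, their sum and the Lyz1 share of that sum are given as a description, with no test.

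The samples were 96 total RNA libraries from 42 strains of the Collaborative Cross, a panel of inbred mouse strains bred from a common set of founder strains. Cells released by enzymes from the skull caps of pups aged 3 to 5 days were grown for 48 h and then kept for 10 days in differentiation medium (ascorbic acid, beta-glycerol phosphate), in which osteoblasts lay down mineral. The strain was the one thing that set groups apart, and no sex, litter, batch or treatment was given. One CC030 sample was sequenced 2 times and its runs were averaged, leaving 95 libraries: 2 in each of 31 strains, 3 in 2 strains, 4 in 6 strains and 1 each in CC011, CC024 and CC035. The cells were not sorted by a marker, so a culture can hold other cells of the skull cap, and the labels do not say whether a strain's libraries are from different animals or cultures. P-values therefore measure the spread between these libraries, which may be technical.

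Lysozyme cuts the sugar backbone of peptidoglycan, the mesh that gives bacterial cell walls their strength. The mouse carries it as a tandem pair of genes. Lyz2, or M lysozyme, is the form of macrophages, monocytes and granulocytes, and its promoter is widely used to drive Cre in myeloid cells. Lyz1, or P lysozyme, is best known from Paneth cells, the secretory cells at the base of intestinal crypts.

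The copies are so alike that some reads fit both, which is why 2 windows of the coding sequence, the least and the most alike, are shown first. The coding sequences have the same length and differ at 22 positions (95.1% identical), of which 6 fall at the first, 6 at the second and 10 at the third codon position. The most different 75 bases, from coding base 58 on, lie in exon 1 on the minus strand at chr10:117292707-117292781 for Lyz1 and chr10:117282111-117282185 for Lyz2 (GRCm38, GENCODE M21). They differ at 12 bases, shown in capitals.
Lyz1: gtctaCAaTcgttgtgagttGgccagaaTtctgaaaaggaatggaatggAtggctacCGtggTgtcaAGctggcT
Lyz2: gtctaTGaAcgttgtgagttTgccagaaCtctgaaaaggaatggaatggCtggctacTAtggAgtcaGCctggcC
At the other extreme, coding bases 276 to 350, which span exons 2 and 3, are the same in both genes, so that a read from this stretch carries nothing to tell them apart.
Both: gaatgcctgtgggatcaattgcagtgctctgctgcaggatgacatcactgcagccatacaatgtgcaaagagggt

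Over the whole transcripts, 1263 bases for Lyz1 and 1316 for Lyz2, 96% of aligned bases were identical. Of the 1189 stretches of 75 bases in Lyz1, the read length implied by the deposited values, 74 (6.22%) occur unchanged in Lyz2 and 531 (44.7%) match it with at most 2 mismatches. No source used here says how reads that match both copies were divided, and the strains' own alleles at the bases that differ were not analysed here. A Lyz1 level that is a small fraction of the Lyz2 level is therefore uncertain in a way that replicate libraries of a strain do not show.

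Upstream of the genes the copies differ more. In the 250 bases before the RefSeq start, 200 of 248 aligned bases were identical (80.6%), and the part from 250 to 51 bases before the start is shown because both genes are read in the same cultures at very different levels. It lies on the minus strand at chr10:117292919-117293118 for Lyz1 and chr10:117282323-117282522 for Lyz2 (RefSeq, GRCm38.p6). Capitals mark bases that differ or have no partner in the alignment.
Lyz1: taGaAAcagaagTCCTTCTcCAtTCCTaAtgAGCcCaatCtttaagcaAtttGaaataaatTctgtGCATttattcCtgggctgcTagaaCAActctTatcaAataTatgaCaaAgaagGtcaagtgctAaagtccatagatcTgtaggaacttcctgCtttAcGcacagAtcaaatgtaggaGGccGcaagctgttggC
Lyz2: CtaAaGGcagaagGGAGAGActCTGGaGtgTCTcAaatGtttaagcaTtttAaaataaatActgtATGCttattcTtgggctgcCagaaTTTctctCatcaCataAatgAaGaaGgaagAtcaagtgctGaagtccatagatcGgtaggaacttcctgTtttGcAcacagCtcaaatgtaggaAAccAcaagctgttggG
Searched on both strands of the 250 bases, the letters AGGAAG, a core bound by ETS factors such as PU.1, occurred 1 time in Lyz1 and 2 times in Lyz2, and 29.5% of 32851 promoters in the table hold them. The C/EBP letters TTGCNNAA occurred 1 time in Lyz1 and 0 times in Lyz2 (9.56% of promoters), while GAGGAA (23.3%), TGANTCA (6.75%) and TATAAA (12.4%) were in neither window. These are matches of letters only.

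The libraries were estimated to hold 20.8 to 39.8 Mreads (median 27.6, with 1 Mread standing for 1000000 reads), apart from a CC075 library at 82.6. Lyz2 was read from an estimated 653 to 142603 reads a library (median 9922) and Lyz1 from 0 to 11431 (median 59.0), taking the first run of the repeated sample. In 17 libraries Lyz1 rested on 10 reads or fewer. All 15 markers of osteoblasts, the labelled cell type, were present, and their summed level ran from 12265 to 29406 scaled TPM between strains.

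Lyz2 was present in every strain and spanned 114-fold. Levels are in scaled TPM, the deposited relative abundance per transcript divided by a scaling factor per library. The median strain was at 266, with quartiles of 125.3 and 687.9. CC030 was highest at 2811 ± 1258 (SD, n = 2), with libraries at 3701 and 1922. CC071 followed at 2659 ± 102 (libraries 2587 and 2731), and CC024 came next at 1394 in its single library. CC005 was lowest at 24.7 ± 11.1 (libraries 16.9 and 32.6), below CC035 at 64.0 in 1 library and CC041 at 65.9 ± 32.2 (n = 4). The 2 CC071 libraries lay between those of CC030, so the order of the 2 highest strains does not exceed their spread, while both CC005 libraries were below every library of another strain.

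Between these ends the levels formed a slope with no gap. CC055 (1308 ± 148), CC032 (1254 ± 577) and CC040 (1069 ± 257) came next on average, each with n = 2. They were followed by CC007 at 933 ± 27.6 (n = 2), CC008 at 913.4 ± 364.5 (n = 4), CC038 at 783 ± 390.3 (n = 4), CC019 at 777 ± 22.4, CC004 at 691 ± 498 (n = 4), CC001 at 678 ± 190.4 and CC023 at 676 ± 49.2 (n = 2 for the others). Moderate levels were found in CC006 (469 ± 219), CC028 (467 ± 204), CC015 (370.5 ± 245, n = 4), CC011 (329, n = 1), CC039 (325 ± 130.2), CC061 (288 ± 22.1), CC043 (275 ± 98.5), CC074 (274 ± 98.8) and CC051 (258 ± 219). Of the 38 pairs of neighbours in this order among the 39 strains with 2 or more libraries, 35 had overlapping libraries. Most neighbours in the order were thus within their spread, though not all: both CC023 libraries lay above both of CC006, the next strain among those with replicates.

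The lower part of the order was as gradual. CC042 (libraries 263.4 and 160.7), CC053 (206 ± 51.6), CC044 (200.2 ± 113), CC075 (184 ± 59.6, n = 3), CC057 (181 ± 33.4), CC045 (165.1 ± 6.86), CC065 (159.9 ± 55.1), CC003 (158 ± 88.7) and CC025 (141 ± 67, n = 4) lay below the median. CC009 (120.1 ± 12.3), CC012 (116 ± 24.5), CC016 (112 ± 40.3), CC013 (108 ± 4.82), CC002 (104 ± 15.8), CC010 (91.4 ± 30.7), CC037 (85.9 ± 31.2) and CC059 (70.6 ± 14.6, n = 3) came next, above the 3 lowest strains. On the log2 scale, the intraclass correlation, the share of the variance that lies between strains, was 0.83 for Lyz2, with a spread (SD) of 0.652 within and 1.46 between strains. In 6 strains the libraries of 1 strain differed by more than 3-fold: CC015 (5.31-fold), CC004 (4.68), CC051 (4.0), CC038 (3.81), CC025 (3.59) and CC041 (3.08). The 4 CC015 libraries, for instance, were at 649, 497.1, 214 and 122, and the 2 CC051 libraries at 412 and 103.

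**Figure D1:**
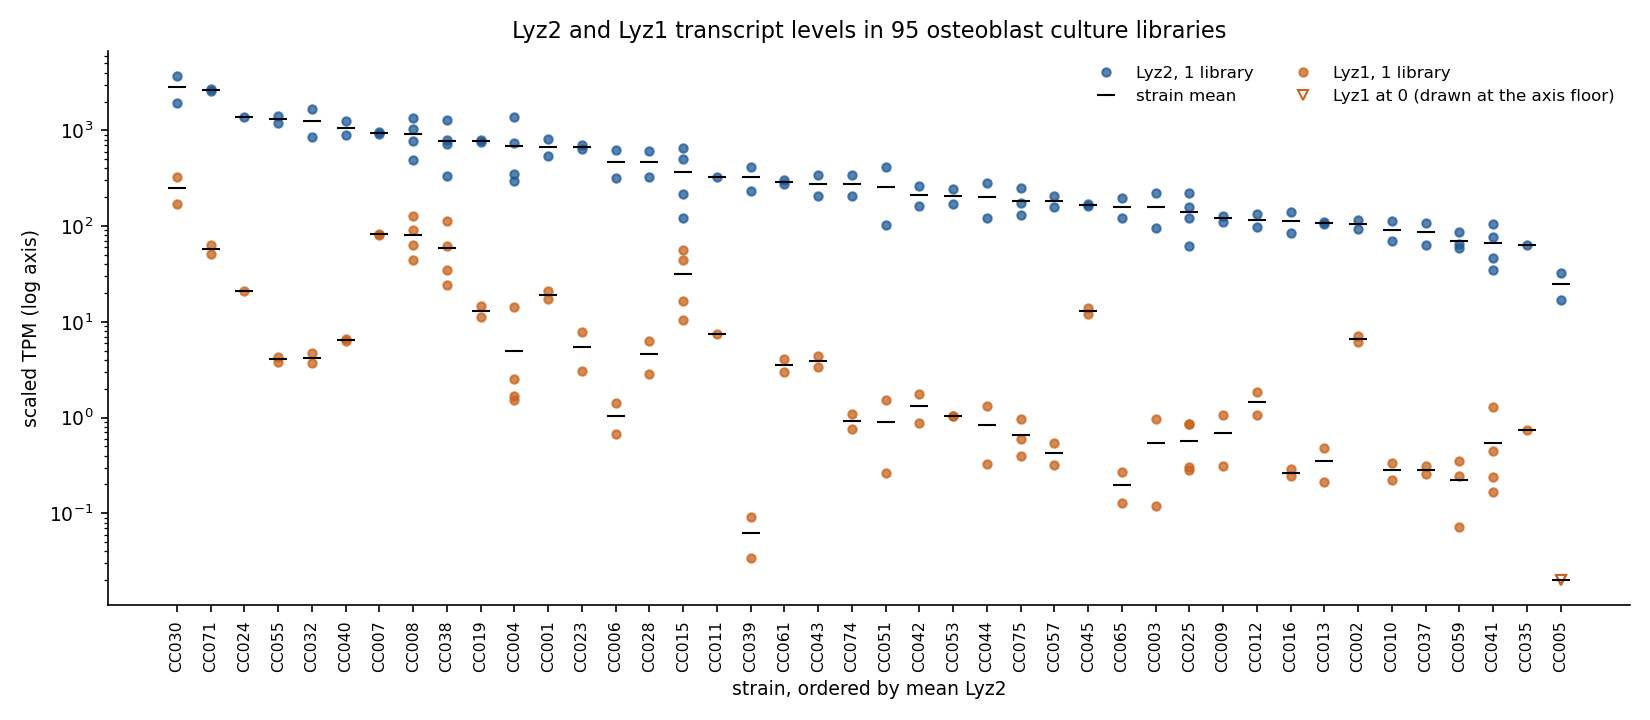
Lyz2 (blue) and Lyz1 (orange) in scaled TPM on a log axis, 1 point per library and a bar at each strain mean, with strains ordered by mean Lyz2. Lyz2 falls in small steps from 2811 in CC030 to 24.7 in CC005, while Lyz1 jumps between neighbouring strains and is drawn at the axis floor where it is 0.

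Lyz1 was the minor copy in all 95 libraries, and it varied over a far wider range than Lyz2. The median strain was at 1.39 scaled TPM, with quartiles of 0.550 and 7.31. CC030 was again highest at 248 ± 109.6 (libraries 325 and 170.3), ahead of CC007 at 82.1 ± 1.70 (83.3 and 80.9) and CC008 at 81.6 ± 36.0 (127, 92.1, 62.8 and 44.6). The CC030 libraries were above every other library, and those of CC007 fell within the range of CC008. CC005 was at 0 in both libraries, CC039 at 0.0624 ± 0.0399 (0.0342 and 0.0906) and CC065 at 0.197 ± 0.0981. In CC005, 0 of an estimated 2001 lysozyme reads were assigned to Lyz1, which allows a share of up to 0.150% (3 reads) or, by the exact 95% interval, 0.184% of reads, so Lyz1 was not detectable there at this depth. In CC039, 4 of 22027 reads were, an exact 95% interval of 0.00495% to 0.0465%. Intervals and limits of this kind cover counting error only.

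After the 3 highest strains, Lyz1 was at 58.5 ± 40 in CC038, 57.3 ± 9.34 in CC071, 31.9 ± 21.9 in CC015, 21.2 in CC024, 19.2 ± 2.50 in CC001, 13 ± 2.36 in CC019 and 13 ± 1.42 in CC045. A middle group ran from CC011 (7.55) and CC002 (6.58 ± 0.652) through CC040 (6.44 ± 0.208), CC023 (5.44 ± 3.36), CC004 (4.97 ± 6.15), CC028 (4.57 ± 2.46), CC032 (4.18 ± 0.720), CC055 (4.08 ± 0.356) and CC043 (3.89 ± 0.709) to CC061 (3.56 ± 0.767). CC012 (1.45 ± 0.538), CC042 (1.33 ± 0.632), CC006 (1.05 ± 0.542) and CC053 (1.04 ± 0.00443) were near 1. The other strains lay between 0.925 ± 0.238 in CC074 and the 0.197 of CC065. Neighbours overlapped in 32 of 38 pairs, and the intraclass correlation was 0.93 on the log2 scale.

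The sum of both genes followed Lyz2, since Lyz1 added little in most strains. It had a median of 267 and ran from 24.7 ± 11.1 in CC005 to 3059 ± 1368 in CC030 (both n = 2), with CC071 at 2716 ± 111 (n = 2). Neighbours overlapped in 35 of 38 pairs, as for Lyz2 alone. The intraclass correlation of the sum was 0.84.

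The share of Lyz1 in the sum sorted the strains in another way, and 1 step stood out in it. Here the share is the percentage of Lyz1 in the TPM of both genes, taken per library and averaged over a strain, and no scaling enters it. In 7 strains it was 5.96% to 8.13%, in 9 strains between 1% and 3%, in 24 strains between 0.1% and 1% and in 2 strains below 0.1%. No strain (0) lay between 3% and 5%. The step from CC002 at 5.96% to CC001 at 2.90% was 3.06 percentage points, the largest in the order, and the second largest was 0.694. The intraclass correlation of the share was 0.97, with an SD of 0.472 percentage points within and 2.91 between strains.

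The 7 strains above the step were alike in their share. CC008 was at 8.13% ± 0.478 (libraries 8.59%, 8.27%, 7.46% and 8.21%), CC030 at 8.11% ± 0.0418 (8.08% and 8.14%) and CC007 at 8.09% ± 0.0666 (8.05% and 8.14%). CC015 was at 7.82% ± 0.422 (8.19%, 7.22%, 7.91% and 7.98%) and CC045 at 7.29% ± 0.457 (6.96% and 7.61%). CC038, at 6.65% ± 1.48 (6.66%, 8.11%, 7.20% and 4.63%), was the most variable of them, and CC002 came last at 5.96% ± 0.294 (5.75% and 6.17%). Among these 20 libraries the share thus ranged from 4.63% to 8.59% while Lyz2 itself ranged 39.7-fold, from 93.2 to 3701 scaled TPM. CC002 and CC030, both among these 7, were the lowest and the highest of them in Lyz2, with means of 104 and 2811. The repeated CC030 sample gives the technical spread: as a share of reads, before length enters, its runs were at 7.42% (exact 95% interval 7.29% to 7.55%) and 8.14% (8.02% to 8.27%), so that 2 runs of 1 library differed by more than counting error.

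Below the step, 75 libraries had shares of at most 3.71%, the higher of the CC001 libraries (the other was 2.09%). CC011 was at 2.24% (n = 1), CC071 at 2.10% ± 0.258 (1.92% and 2.29%), CC019 at 1.64% ± 0.248, CC024 at 1.50% (n = 1) and CC043 at 1.44% ± 0.259. CC061 and CC012 were both at 1.21% (± 0.167 and ± 0.200) and CC035 at 1.14% (n = 1). CC071 had nearly the Lyz2 level of CC030 (2659 against 2811) and a Lyz1 level of 57.3 against 248.

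The other 26 strains had shares under 1%, from CC028 at 0.945% ± 0.108 and CC041 at 0.831% ± 0.633 down to CC065 at 0.120% ± 0.0199, CC039 at 0.0182% ± 0.00499 (0.0147% and 0.0218%) and CC005 at 0. The median over all 42 strains was 0.598%, with quartiles of 0.329% and 1.60%, and 32 of 38 pairs of neighbours overlapped. CC055, with a Lyz2 level of 1308, was at 0.312% ± 0.00804, with its libraries at 0.317% and 0.306%. Apart from CC005, where it is 0, the share differed most between libraries of 1 strain in CC041, whose 4 libraries were at 0.958%, 1.66%, 0.224% and 0.478%, a 7.44-fold range. The ranks of Lyz1 and Lyz2 were more than 20 places apart in 2 strains. CC002 was 12th for Lyz1 and 36th for Lyz2, and CC039 was 41st for Lyz1 and 18th for Lyz2.

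**Figure D2:**
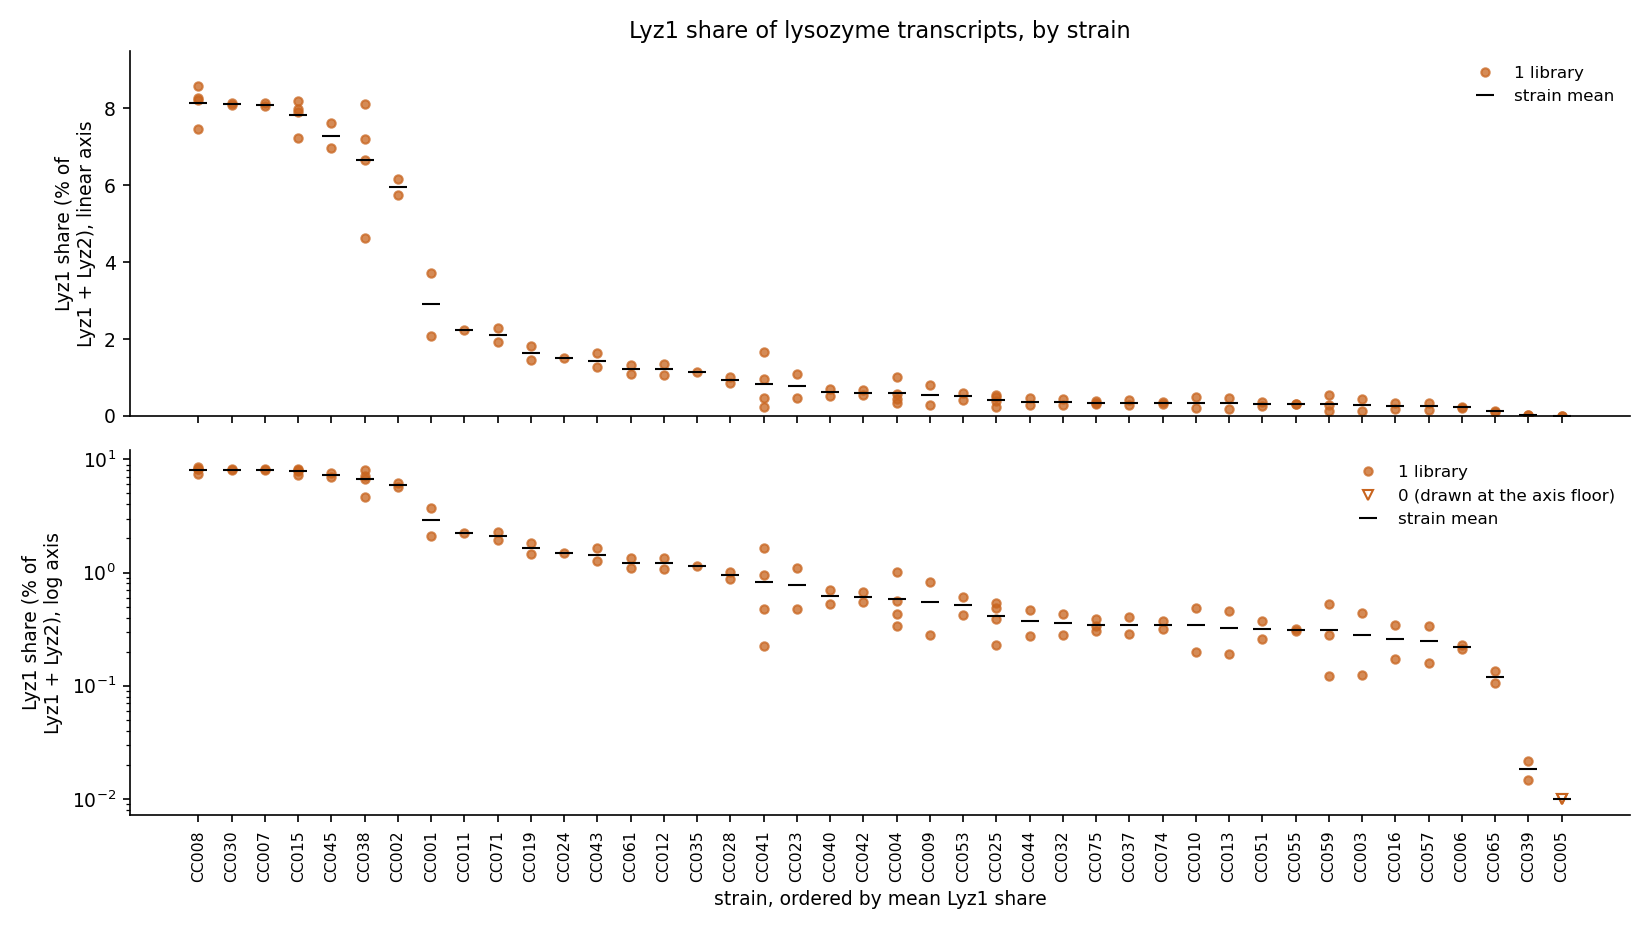
Lyz1 share of the summed Lyz1 and Lyz2 TPM in percent, 1 point per library and a bar at each strain mean, strains in order of their mean share, on a linear axis above and a log axis below. The 7 strains at the left, from 8.13% to 5.96%, are separated by the step to CC001 at 2.90%, and CC005 is drawn at the floor of the log axis because both its libraries are at 0.

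The copies moved together across strains and between libraries of a strain. Across the 42 strain means, r between log2 levels of Lyz1 and Lyz2 was 0.78. It was 0.84 among the 35 strains below the step and 1.00 among the 7 above it. Both sets were formed by the share. Above the step its narrow range, over a wide range of Lyz2, nearly fixes r in advance, so that value shows nothing further. Between libraries of the same strain (92 libraries, deviations from strain means) r was 0.80, and in 24 of 31 strains with 2 libraries the library higher in Lyz2 was also higher in Lyz1. The share, in contrast, had r = 0.15 with Lyz2 in the same deviations. These r are descriptions: both copies come from the same library and share sequence, which was not separated here.

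**Figure D3:**
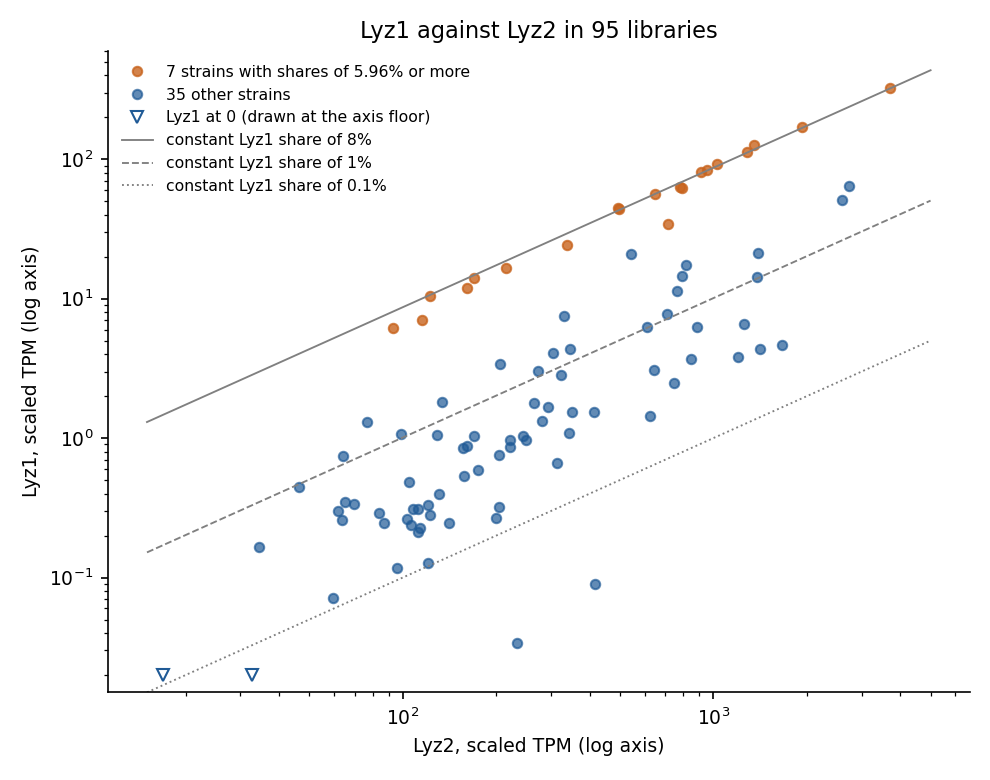
Lyz1 against Lyz2 in scaled TPM, both on log axes, 1 point per library, with lines of constant share at 8%, 1% and 0.1%. Libraries of the 7 strains with shares of 5.96% or more (orange) lie at shares of 4.63% to 8.59% over a 39.7-fold range of Lyz2. At the low end of that range the CC002 libraries, at 5.75% and 6.17%, lie below the 8% line. Libraries of the 35 other strains (blue) have lower shares, up to 3.71% in a CC001 library.

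The macrophage markers were compared with the lysozyme genes because Lyz2 is a macrophage gene and the cultures were not sorted. A strain test was run on 15760 genes (limma's moderated F test over 39 strains and 92 libraries, Benjamini-Hochberg adjustment, FDR 0.05), and it called 81.5% of them. All 20 macrophage markers were called, which is read against that background. Their summed level ran from 46.4 to 2598 scaled TPM between strains (median 295), and none of them was at 0 throughout. Csf1r, the receptor for the growth factor macrophages need, was at 75.7 ± 43.3 (n = 2) in CC030 and 0.848 ± 0.275 (n = 2) in CC002. Ctss, a lysosomal protease, ranged from 5.17 ± 1.83 in CC005 to 441.8 ± 18.5 in CC030. Tyrobp, a signalling adaptor of myeloid receptors, ranged from 4.59 ± 2.20 in CC005 to 268 ± 65.1 in CC030. The complement genes C1qa and C1qc were likewise highest in CC030, where C1qc was at 331 ± 25.5, against 3.50 ± 2.56 in CC002 for C1qa and 2.51 ± 1.93 (n = 4) in CC041 for C1qc.

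Lyz2 followed these markers closely. With the macrophage score, the mean z-score of the 20 markers, Lyz2 had r = 0.94 and rho = 0.94 over 42 strain means and r = 0.92 without the 2 strains farthest from the median score. Lyz1 had r = 0.68 and rho = 0.66, and 0.62 without 2 strains. These r, and those with other scores, are descriptions with no p: the genes and lists were chosen with results known, and the points share their libraries. The score was 1.95 in CC030, 1.53 in CC055 and 1.44 in CC071, and lowest in CC041 (-1.46), CC005 (-1.40) and CC002 (-1.34). In bulk RNA, fewer cells of a type and less RNA per cell cannot be told apart. Between libraries of a strain, Lyz2 moved with the score too (r = 0.88, the same direction in 28 of 31 strains with 2 libraries). For Lyz1 this r was 0.65, with the same direction in 21 of 31, and the difference between the 2 genes was not tested. What part macrophage content has in the levels of either gene was not tested.

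**Figure D4:**
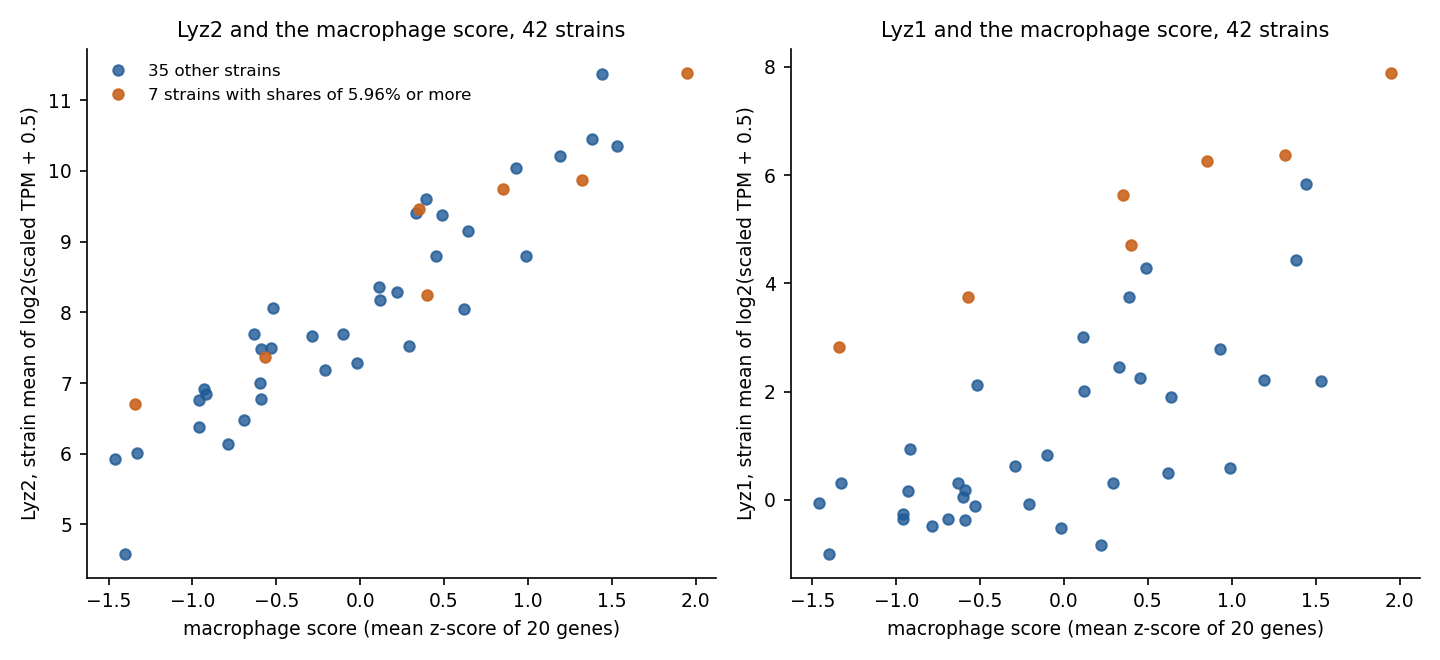
Strain means of Lyz2 (left) and Lyz1 (right), as log2(scaled TPM + 0.5), against the macrophage score, 1 point per strain for 42 strains. Lyz2 rises with the score in one cloud (r = 0.94), and Lyz1 had r = 0.68 over all strains. The 7 strains with shares of 5.96% or more (orange) run from a mean Lyz1 of 6.58 scaled TPM in CC002 to 248 in CC030. Some other strains, such as CC071 at 57.3, lie within that range.

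The share was related to the score within each side of the step, and no r over all strains is given for it because of the gap. Among the 35 strains below it, r was 0.26 and rho 0.22, and r was 0.22 without 2 strains. Among the 7 above it, r was 0.83 and rho 0.86, over few strains that were set apart by the share itself. Deviations of libraries from their strain means gave r = 0.08 between share and score, with the same direction in 12 of 31 strains.

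Other markers in the cultures moved with the lysozyme genes to differing degrees. Counts of called markers here are read against the 81.5% of all genes called. For monocytes 3 of 5 markers were tested and all 3 called. F13a1, a transglutaminase, was at 289 ± 1.80 in CC030 against 0.443 ± 0.161 in CC037 and had r = 0.87 with Lyz2. Plac8 and Ccr2, a chemokine receptor, had 0.27 and 0.59. Ly6c2 and Chil3 were not tested for want of signal. Of the 14 granulocyte genes, 7 were tested and 4 called (Mpo, Ctsg, Mmp8 and Csf3r), a smaller share than the 81.5% of all genes. The 14 genes summed to 0.303 to 8.09 scaled TPM. S100a8, Camp and Prtn3 were not called (limma, adjusted p = 0.143, 0.0535 and 0.0755). Csf3r, the receptor for granulocyte colony-stimulating factor, reached 1.11 ± 0.154 in CC071, and Mpo, myeloperoxidase, 0.536 ± 0.363 in CC005. Ctsg, a granule protease, reached 4.02 ± 0.412 in CC032 and was above 0 in 20 libraries, while S100a8 and Camp reached 3.48 ± 4.93 and 3.89 ± 5.42 in CC051. The 7 genes not tested were lower: S100a9, Ltf, Ngp, Elane, Retnlg and Cebpe stayed below 0.05 scaled TPM on average in every strain and Cxcr2 below 0.1. The granulocyte score had r = 0.67 with Lyz2 and 0.43 with Lyz1, and 0.76 and 0.56 without 2 strains. For Lyz1, r was 0.31 without CC051 replicate 2, and 7 granulocyte genes were called without that library.

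Paneth cell markers, checked because Lyz1 is known from these cells, were at or near 0 in most strains. The 6 of them summed to 0 to 6.6 scaled TPM, and the highest was Reg3g, an antibacterial lectin, at 6.59 ± 9.19 (n = 2) in CC051. It was the only one tested and was not called (limma, adjusted p = 0.0682), and its r with Lyz1 over strains was 0.07. Mmp7, Reg3b, Ang4, Itln1 and Pla2g2a were at 0.106 TPM or less in every strain mean. Of dendritic markers 5 of 6 were tested and called, where 81.5% of all genes were, with sums of 1.44 to 24.5 scaled TPM. Flt3 was not tested. Itgax, the integrin CD11c, was at 7.80 ± 2.41 in CC030 and 0.0694 ± 0.00335 in CC005, with r = 0.69 with Lyz2. Zbtb46, Cd74 and H2-Ab1 had r with Lyz2 of -0.17, 0.55 and 0.02. Lymphocyte markers (0 of 3 tested, sum at most 0.0546 TPM) and mast cell markers (1 of 4 tested, not called) were low throughout. Endothelial markers were low too (3 of 5 tested and called, beside 81.5% of all genes, sum at most 2.38 TPM).

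Osteoclasts share their lineage with macrophages, and 6 of 10 osteoclast markers were tested and all 6 called, where 81.5% of all genes were. The osteoclast score had r = 0.80 with Lyz2 and 0.72 with Lyz1, and 0.75 and 0.65 without 2 strains. Single markers differed: Tnfrsf11a, the receptor RANK, which macrophages also carry, had r = 0.91 with Lyz2, Atp6v0d2 0.66, Mmp9 0.48, Ctsk 0.27 and Acp5 -0.02. Calcr, Ocstamp, Dcstamp and Oscar were not tested. The 15 osteoblast markers were all called. In the strains whose libraries have title numbers 20 or more apart, 4 of them were called and 6512 of 15760 genes. Their score had r = -0.42 with Lyz2 (rho = -0.26), which became -0.16 without the 2 strains farthest from the median score and so rests on them. Between libraries of a strain this r was -0.61, with the same direction in 16 of 31 strains with 2 libraries. Lyz1 had r = -0.32 over strains (rho = -0.13), and 0.00 without the 2 strains farthest from the median score, so that value rests on them too. Sp7, an osteoblast transcription factor, was lowest in CC030 at 7.75 ± 2.18 and highest in CC019 at 56.4 ± 0.549, and Alpl, alkaline phosphatase, was at 44.9 ± 35.5 in CC030 and 312 ± 6.95 in CC019. The abundant matrix genes Col1a2, Sparc, Spp1 and Col1a1, with medians of 7012, 3815, 2311 and 2308, had r with Lyz2 of -0.20, -0.24, -0.11 and 0.09.

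Of 8 transcription factors of myeloid cells, 7 were called and Cebpb was not (limma, adjusted p = 0.0617), a share near the 81.5% of all genes. In the strains with distant title numbers 3 of the 8 were called, beside 6512 of 15760 genes. Spi1, which encodes PU.1, was at 18.9 ± 9.6 in CC030 and 0.421 ± 0.244 (n = 4) in CC041, and Irf8 at 8.57 ± 2.81 in CC030 and 0.253 ± 0.142 in CC041. Their r with Lyz2 was 0.93 and 0.91, and with Lyz1 0.68 and 0.65. Klf4, the one of highest median (25.7), had r = -0.38 with Lyz2, Maf (12.4) 0.62 and Cebpa (5.31) 0.69. The log2 ratio of Lyz1 to Lyz2 was taken with 0.5 scaled TPM added to each gene. Where Lyz1 was low, the added 0.5 and Lyz2 set much of it, so it is not the share on a log scale. Among the 35 strains below the step in the share, r with this ratio ran from -0.39 for Cebpa to 0.20 for Klf4. Among the 7 above it, over few strains, it ran from -0.12 for Klf4 to 0.74 for Spi1 and 0.76 for Irf8.

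Genes that sense or handle the peptidoglycan that lysozyme releases were mostly low. Of 11, 9 were tested and all 9 called, where 81.5% of all genes were. In the strains with distant title numbers 5 of the 9 were called, beside 6512 of 15760 genes. Casp1, the inflammasome protease, was at 6.56 ± 2.62 in CC030 and 0.109 ± 0.0862 (n = 4) in CC041 and had r = 0.90 with Lyz2. Nlrp3 had 0.87, Slc15a3, a lysosomal transporter of peptidoglycan fragments, 0.86 and Tlr2 0.72. Nod1, a cytosolic peptidoglycan receptor, had 0.54, Nagk, an N-acetylglucosamine kinase, 0.47, and the adaptors Myd88 and Ripk2 0.13 and 0.08. Nod2 and Il1b were not tested. Of the 8 other genes of the lysozyme family, only Lyzl4 was tested, and it was called, reaching 1.87 ± 0.817 in CC074, with r = 0.04 with both Lyz1 and Lyz2. Lyzl6, Lalba and Lyg1 were at 0 in all libraries, and Lyzl1, Spaca3, Spaca5 and Lyg2 at 0.0457 TPM or less in every strain mean.

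Ranked by r over 42 strain means among 9510 genes that reached 5 scaled TPM in at least 1 strain, the genes most like Lyz2 were Il10ra, Slc11a1, P2ry6, Itgb2 and Clec4d (each 0.94), then Csf1r, Fcgr3, Tyrobp, Spi1 and Tlr8 (each 0.93). Of the 19 macrophage markers among these 9510 genes, 13 were within the 100 most like Lyz2. Slc11a1, a metal transporter of phagosomes, was at 0.425 in CC005 and 64.9 in CC030. For Lyz1 the leading genes were Clec4a2 and Mpp1 (0.79), Cela1, Plxnd1, Pgm2l1 and Tbk1 (0.77), Rnf128 and Cd300lb (0.76), and Rab8b and Gna15 (0.75), and 2 macrophage markers were within the 100 most like it. CC030, highest in Lyz1, was also highest in 9 of these 10 genes. The points share their libraries, and no p is given.

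The log2 ratio of Lyz1 to Lyz2, with 0.5 added to each, was ranked in the same way, over both sides of the step in the share. Cct2, a subunit of the cytosolic chaperonin that folds actin and tubulin, stood lowest with r = -0.68, and Snrpa (-0.65), Nabp2 (-0.58) and Rab24 (-0.58) were also among the lowest. The highest were Hr (0.59), Lasp1 (0.57), Rufy2 (0.57), Ccdc8 (0.56) and Lgr5 (0.56). These values hold the step itself: among the 35 strains below it, r was -0.03 for Cct2, -0.50 for Snrpa, -0.15 for Nabp2, -0.19 for Rab24, 0.28 for Hr, 0.15 for Lasp1, 0.39 for Rufy2, 0.23 for Ccdc8 and -0.13 for Lgr5. Below the step many strains had little Lyz1, so these r depend in part on the added 0.5 and on Lyz2. Among the 7 above it, over few strains, r was -0.63 for Cct2, 0.03 for Snrpa, -0.44 for Nabp2 and 0.09 for Rab24. For Hr, Lasp1, Rufy2, Ccdc8 and Lgr5 it was 0.35, -0.15, -0.34, -0.49 and -0.14 there. Of the 50 genes with the largest r in either direction, 11 were on chromosome 10, where 4.75% of the 9510 genes lie. Of the 45 of these genes that are among the 50 nearest protein-coding genes on either side of the lysozyme pair, 4 were in that set, among them Lgr5, 17 genes from the pair, and Cct2, 4 genes from it.

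Of the 10 protein-coding genes next to the lysozyme pair, 5 on each side, 8 were tested and all 8 called, beside 81.5% of all genes. In the strains with distant title numbers 5 of the 8 were called, beside 6512 of 15760 genes. Lrrc10 and 9530003J23Rik were not tested. Cct2 was the highest of them, at 134.4 scaled TPM in the median strain, with 71.7 ± 4.93 (n = 2) in CC030 and 175 ± 12.8 (n = 4) in CC025 (limma, adjusted p = 1.92e-17). Its r was -0.73 with Lyz1 and -0.44 with Lyz2. The ubiquitin ligase gene Mdm2 (median 20.5), Cpsf6 (25.4), which acts in the cutting of pre-mRNA ends, and Yeats4 (13.1), a chromatin reader, had r with the ratio of 0.10, 0.27 and -0.18 among the 35 strains below the step. Frs2, an adaptor of growth factor receptors, had 0.41, with 4.02 ± 0.438 in CC002 and 2.05 ± 0.192 in CC039. For Cpm, Slc35e3 and Nup107 this r was -0.17, 0.07 and 0.12. Among the 7 strains above the step, r with the ratio was 0.92 for Yeats4, -0.54 for Slc35e3 and -0.39 for Cpsf6, beside -0.63 for Cct2. It was -0.25 for Nup107, -0.21 for Cpm, 0.03 for Mdm2 and -0.01 for Frs2, all over few strains.

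The order of strains by Cct2 met the step in the Lyz1 share: the 7 strains with the highest shares were the 7 with the lowest Cct2. This was noticed after the values were seen and is given with no test. From the lowest, Cct2 was at 71.7 ± 4.93 in CC030, 77.4 ± 7.77 in CC007, 88.8 ± 8.69 in CC015, 89.4 ± 0.0379 in CC002, 91.8 ± 19.3 in CC008, 92.5 ± 1.28 in CC045 and 109.5 ± 12.6 in CC038. The next strains were CC071 at 110.3 ± 12.4 and CC039 at 113 ± 0.372, so the sets meet without a gap at CC038 and CC071. The median was 89.4 over the 7 strains and 137 over the other 35. CC002, with a Lyz2 level of 104 and a macrophage score of -1.34, and CC030, with 2811 and 1.95, were both low in Cct2. CC005 and CC039, with the smallest shares, were at 120.3 ± 12.9 and 113 ± 0.372, below the median strain. The founder origin of this stretch of chromosome 10 in each strain was not analysed here.

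**Figure D5:**
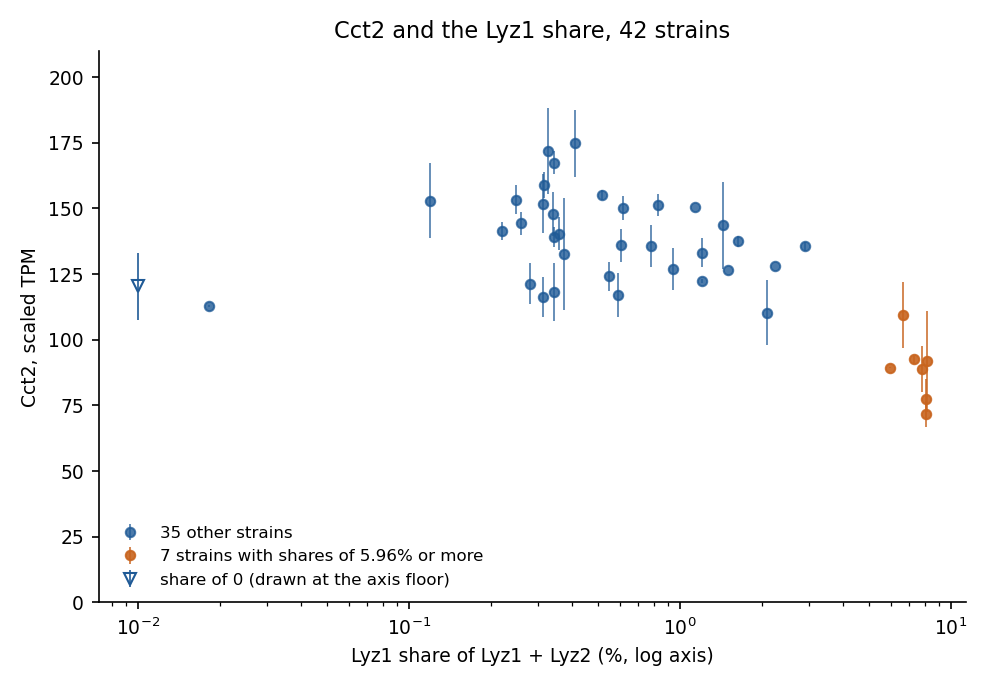
Cct2 in scaled TPM (mean and SD of the libraries of a strain, linear axis from 0) against the Lyz1 share in percent on a log axis, 1 point per strain. The 7 strains with shares of 5.96% or more (orange) lie at Cct2 levels of 71.7 to 109.5 and the 35 others (blue) at 110.3 or above, and the triangle at the axis floor is CC005, with a share of 0.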

How the data were processed

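The authors deposited a table of TPM per Ensembl transcript, a length-corrected relative abundance, whose 96 columns each sum to 1000000, whatever its name says of counts. Per the submitters' processing notes, the build was mm9 and the aligner Bowtie. How reads were shared out among transcripts is not stated there. Of 94545 transcripts, 91225 matched GENCODE M21 (GRCm38) and were summed into 37945 genes. The 3320 unmatched transcripts were not used.

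Each library was divided by a trimmed mean of log ratios (30% trimmed by ratio and 5% by level on each side), with factors of 0.772 to 1.27. Deposited values below 1e-06 TPM were taken as 0. The strain test used log2(scaled TPM + 0.5) of genes reaching 0.5 TPM in 2 libraries, with limma 3.58.1 in R 4.3.3 (moderated F test, variance trend, residual df 53, FDR 0.05). The test was first tested on simulated data. Differences on this scale understate changes of genes with low values. Relations used strain means. Their permutation p-values (100000 draws, or all 5040 orders for 7 strains, adjusted over 20 relations) served only to compare alternatives. The plan had 16 relations, and the share and the ratio were split at the largest step of the share once it was seen. Scores and sequence comparisons were computed in Python 3.11.15 with numpy 2.4.6, pandas 2.3.3, scipy 1.17.1 and Biopython 1.88, and figures with matplotlib 3.10.9.

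TPM keeps no depth, so it was estimated from the whole-read steps of transcripts with few reads, after taking 74 bases off each length, which implies reads of 75 bases. Within 0.1 read, 77.1% of these values were whole in the median library (74.2% to 80.4%), and chance would give 20.0%. No counts were rebuilt for the test.

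Lyz1, Lyz2, the members and all gene lists (macrophage, monocyte, granulocyte, dendritic, osteoclast, osteoblast, Paneth, lymphocyte, mast cell, endothelial, myeloid transcription factors, peptidoglycan sensing, other lysozyme family and chromosome neighbours) were chosen with earlier results of these data known. By rule, genes named were the 4 tested members of highest median level and the untested members of each list, the 10 most like Lyz1 and Lyz2, the 5 at either end for their ratio and the 5 nearest protein-coding genes on each side. Genes named beyond this rule (among them Irf8, Casp1, Nlrp3, Slc15a3, Nod1, Tnfrsf11a, Sp7, Alpl and called or uncalled members of short lists) were chosen after their values were seen. One gene that the rule names is not reported here. Promoters of both genes matched the RefSeq table by symbol. Alternatives were deposited TPM, other pseudocounts and filters, each run of the repeated sample alone, other variance models, subsets of strains by title number and leaving out each library.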

Additional observations from a re-analysis of the deposited data

Results flagged for a closer look

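In groups of 4 libraries, the highest or lowest was set against the others by its gap to the nearest one, divided by the range of the group. Of 24 groups looked at (Lyz1, Lyz2, their sum and the share in 6 strains, with the sum close to Lyz2), 1 was above the critical value of 0.829: Lyz1 in CC004, where a library stood at 14.2 scaled TPM and the others at 1.53, 1.67 and 2.50 (gap over range 0.923). Chance gives about 1 group in 20. That library was also the highest of the strain in Lyz2, at 1376 against 744, 351 and 294, and in share, at 1.02% against 0.335%, 0.434% and 0.565%.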

How the results depend on the processing

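For Lyz1, Lyz2, their sum and the share, the median, the lowest and the highest strain level were followed under the alternatives (1167 values). None moved by more than the spread between libraries. Most of these values come from leaving out 1 library. For the lowest and highest strain that step cannot move the mean beyond this spread, so those cases show little. Levels of the other strains were not followed. Counts of genes past limma's strain test stayed within 1.5 times in 1422 cases and moved in 16. Relations kept their side of an adjusted permutation p of 0.05 in 2017 cases, with 13 crossing upward and 13 downward. None (0) changed sign with an adjusted permutation p below 0.05 in either setting. Other changes of sign were not counted, such as 0.02 to -0.03 for the share below the step with the granulocyte score. That p served only to sort the alternatives. It tests no relation, since the genes, the lists and the step were chosen with results known. The cause of the changes was not tested.

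For the strains with title numbers 20 or more apart, only the lowest- and highest-numbered library of each was used. Of 15760 genes, 6512 were called. So were 4 of 15 osteoblast genes, 3 of 8 myeloid transcription factors and 5 of 9 peptidoglycan sensing genes. For other lysozyme genes it was 0 of 1 and for chromosome neighbours 5 of 8. In these strains Lyz1 had r = 0.36 with the granulocyte score and -0.54 with the osteoblast score, against 0.43 and -0.32 over all strains. Among the other strains 1 Paneth and 1 mast cell gene were called, and Lyz2 and the sum had r = -0.42 with the osteoblast score, no longer called. With no filter on low values 2 Paneth and 2 mast cell genes were called, with a pseudocount of 0.1, 1 Paneth gene, and with a filter of 1 TPM in 10 libraries, 1 endothelial gene. No granulocyte, Paneth, mast cell or other lysozyme gene passed that filter, so it gave no value for them.

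With deposited TPM, r with the osteoblast score was -0.30 for Lyz2 and the sum, against -0.42 with scaling. The share above the step had r = 0.81 with the macrophage score, against 0.83 with scaling. Below the step its r with the osteoclast score was 0.43, against 0.34 with scaling. Lyz1 had r = -0.34 with the osteoblast score with a pseudocount of 1 and -0.35 in strains with 2 or more libraries, against -0.32. With the first CC030 run only, the share above the step had r = 0.80 with the macrophage score. Without the 2 strains farthest from the median score, r with the osteoblast score was 0.00 for Lyz1 and -0.16 for Lyz2 and the sum. For the share below the step it was 0.40.

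Leaving out each library in turn gave 4 to 7 of 7 granulocyte genes and 0 to 1 of 1 Paneth gene, beside 12532 to 13250 of 15760 genes. The Paneth gene was called without CC038 replicate 1, CC051 replicate 1 or CC051 replicate 2. For Lyz1, r was 0.31 to 0.54 with the granulocyte score and -0.38 to -0.26 with the osteoblast score. For the share above the step it was 0.78 to 0.89 with the macrophage score. For the share below the step it was 0.28 to 0.37 with the osteoclast score. No paired analysis was possible because the labels number no replicates and strains share no numbers. Lyz1 is limited by depth wherever it rests on few reads, as in the 17 libraries with 10 or fewer.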
